A study of Mus musculus with 5 samples.

Results

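Fibroblast growth factor (FGF) signalling was examined in mouse cholangiocarcinoma (CCA) nodules through 8 genes of the 55397 in the count table. They were the receptor genes Fgfr1, Fgfr2, Fgfr3 and Fgfr4, the co-receptor beta-Klotho (Klb), and the ligands Fgf1, Fgf21 and Fgf15. They were picked by symbol for their place in the pathway, and all 8 were matched to Ensembl identifiers and passed the filter on low values. Nodules had been started in 8-week-old female C57BL/6N mice by hydrodynamic tail vein injection, which pushes plasmid DNA into hepatocytes. Every mouse received 4 µg of CMV-Sleeping Beauty transposase with pT3-EF1a-AKT and pT3-EF1a-NICD-IRES-rtTA, so that Akt and the intracellular domain of NOTCH (NICD) ran from an EF1a promoter that is not restricted to a cell type. The Control mice (2 libraries) also received 10 µg of pT3-Tre-IRES-GFP, and the Prox1 overexpression (Prox1 OE) mice (3 libraries) received the same amount of pT3-Tre-FLAG-mmProx1-IRES-GFP instead. Doxycycline food (6.25%) from day 21 was meant to switch on the Prox1 plasmid between week 3 and week 4. The labels give collection either a week later or at a humane endpoint, without assigning either to a library. They also do not say whether each library came from a separate mouse, so p-values measure the spread between these libraries, part of which may be technical.

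FGFs are secreted or intracellular proteins, and the secreted ones bind receptor tyrosine kinases together with heparan sulfate chains on the cell surface. The endocrine members bind heparan sulfate weakly and need a Klotho protein as a co-receptor instead. In the healthy liver, ileal FGF15 reaches hepatocytes through the blood and acts on FGFR4 with beta-Klotho to lower bile acid synthesis, whereas FGF21 is made by hepatocytes during fasting and cell stress and acts mainly on other organs. FGFR2 is known in human intrahepatic cholangiocarcinoma for activating gene fusions.

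Libraries held 48740863 to 56629477 reads, and 1 read was worth 0.822 to 1.18 normalised counts (reads divided by the library's size factor). Prox1 itself was at 4153 and 4664 normalised counts in Control. It reached 48090, 11113 and 8231 in Prox1 OE 1, 2 and 3, and the difference did not pass the threshold in the limma fit (log2 fold change 1.90, adjusted p = 0.061). Prox1 OE 1 therefore stood apart in the overexpressed gene. The label of transformed hepatocytes was compared with defining markers. All 10 hepatocyte markers and all 8 cholangiocyte markers were detected in every library above the filter. Summed normalised counts of the hepatocyte markers ran from 779339 to 1246170 in Control and from 2517810 to 3899170 in Prox1 OE, with 8 of 10 called higher. Those of the cholangiocyte markers ran from 758311 to 827377 in Control and from 523550 to 707485 in Prox1 OE, with 7 of 8 called lower. Most of that sum was Spp1, the marker that was not called (log2 fold change -0.34, limma adjusted p = 0.51). Without it the sums were 42628 and 46301 in Control and 16889, 18660 and 14233 in Prox1 OE. Sums over 10 stellate cell and fibroblast markers were 53399 and 55013 in Control and 29458 to 34702 in Prox1 OE, although 2 members were called in each direction. Col1a1 and Acta2 carried the lower sum (log2 fold changes -1.23 and -1.32), and the other 8 markers summed to 13409 and 13450 in Control and 14122 to 15593 in Prox1 OE, with Lrat and Reln called higher. These counts stand beside 17.1% of all genes called higher and 16.2% called lower. Endothelial markers (3 of 8 called, all higher; sums 9271 and 11685 against 11319 to 16011), macrophage markers (2 of 6, higher; 8675 and 10057 against 13868 to 20489) and lymphocyte markers (3 of 5 tested, higher; 115 and 131 against 235 to 374) were also measured. Their part in the results for the FGF genes was not tested. In bulk tissue, fewer cells of a type and less RNA per cell cannot be told apart.

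Promoter sequence is shown for a member that was called higher in Prox1 OE, Fgf21, and for a member whose groups overlapped, Fgfr4. Windows ran from 250 bases before to 50 bases after the start site in RefSeq annotation of GRCm38.p6, and 5 of the 8 members had at least 1 window. The single transcript of Fgf21 and 1 of 3 GENCODE transcripts of Fgfr4 start inside the window shown. None is shown for Fgfr2, because 0 of its 27 GENCODE transcripts start in its RefSeq window. Each sequence is written 5′ to 3′ on the strand of the gene, in lower case with motif matches in capitals. The motifs searched on both strands were CAAAGTCCA (HNF4), the HNF1 palindrome, GTGGGAA (RBPJ, the DNA-binding partner of NICD), TGATGNAAT (the C/EBP-ATF element of stress-responsive genes), TGACGTCA (the cAMP response element) and GGGCGG (the GC box). A match is a description of the letters and not a site in use.
Fgf21 promoter, chr7:45615441-45615740, minus strand: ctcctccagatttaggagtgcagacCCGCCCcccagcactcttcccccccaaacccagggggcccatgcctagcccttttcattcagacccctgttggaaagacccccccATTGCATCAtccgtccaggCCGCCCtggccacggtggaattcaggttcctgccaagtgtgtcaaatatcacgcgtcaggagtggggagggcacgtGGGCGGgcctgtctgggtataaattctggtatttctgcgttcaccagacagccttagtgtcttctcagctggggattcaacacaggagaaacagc
Fgfr4 promoter, chr13:55152568-55152867, plus strand: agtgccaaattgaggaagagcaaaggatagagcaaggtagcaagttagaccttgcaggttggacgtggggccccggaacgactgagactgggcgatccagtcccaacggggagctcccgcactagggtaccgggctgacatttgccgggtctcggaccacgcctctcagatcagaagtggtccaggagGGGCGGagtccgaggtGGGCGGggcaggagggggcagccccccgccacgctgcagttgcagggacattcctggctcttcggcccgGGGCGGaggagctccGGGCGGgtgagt

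The Fgf21 window held the C/EBP-ATF element once, on the opposite strand with its first printed base at position -140 (the start site is 1 and there is no position 0). These letters occurred in 0.965% of 32851 promoter windows. It also held GC boxes at -225, -121 and -45, a motif found in 35.7% of windows. The Fgfr4 window held GC boxes at -62, -46, 24 and 39 and none of the other motifs, and its GC content was 65.3%. The Klb window (GC content 48.3%) had 0 matches, and the windows of the 2 Fgfr3 start sites had 4 and 2 matches, which were all GC boxes. HNF4, HNF1, RBPJ and cAMP response letters were in 0.475%, 0.00913%, 6.38% and 1.79% of all windows and in 0 of the windows of Fgf21, Fgfr4, Klb and Fgfr3.

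The comparison of Prox1 OE with Control asked how FGF genes differed when Prox1 was switched on in tumours that had already formed. Transcripts of Fgfr1 and Fgfr2 were lower in Prox1 OE, those of the ligands Fgf1 and Fgf21 were higher, and the tests for Fgfr3, Fgfr4, Klb and Fgf15 missed the threshold. Thus 4 of 8 members were called (limma, Benjamini-Hochberg adjusted p under 0.05), 2 in each direction. Over all 17105 genes tested, 33.3% were called, 17.1% higher and 16.2% lower. Groups did not overlap for 6 of 8 members, beside 63.3% of all genes tested, which is close to the members' share. The median log2 fold change was -0.20 over the members and -0.02 over all genes tested. The count depended on the setting: 5 were called with the total count as scaling (48.6% of all genes called), 5 with DESeq2 (38.9%), 5 with a mean of at least 50 (39%) and 5 without Prox1 OE 1 (43.8%), while 2 were called without Control 1 (6.77%). Without Control 2 and with the replicate number as a block, 4 were called (13.3% and 30.7% of all genes). Fold changes are Prox1 OE over Control on the log2(normalised count + 1) scale.

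**Figure D1:**
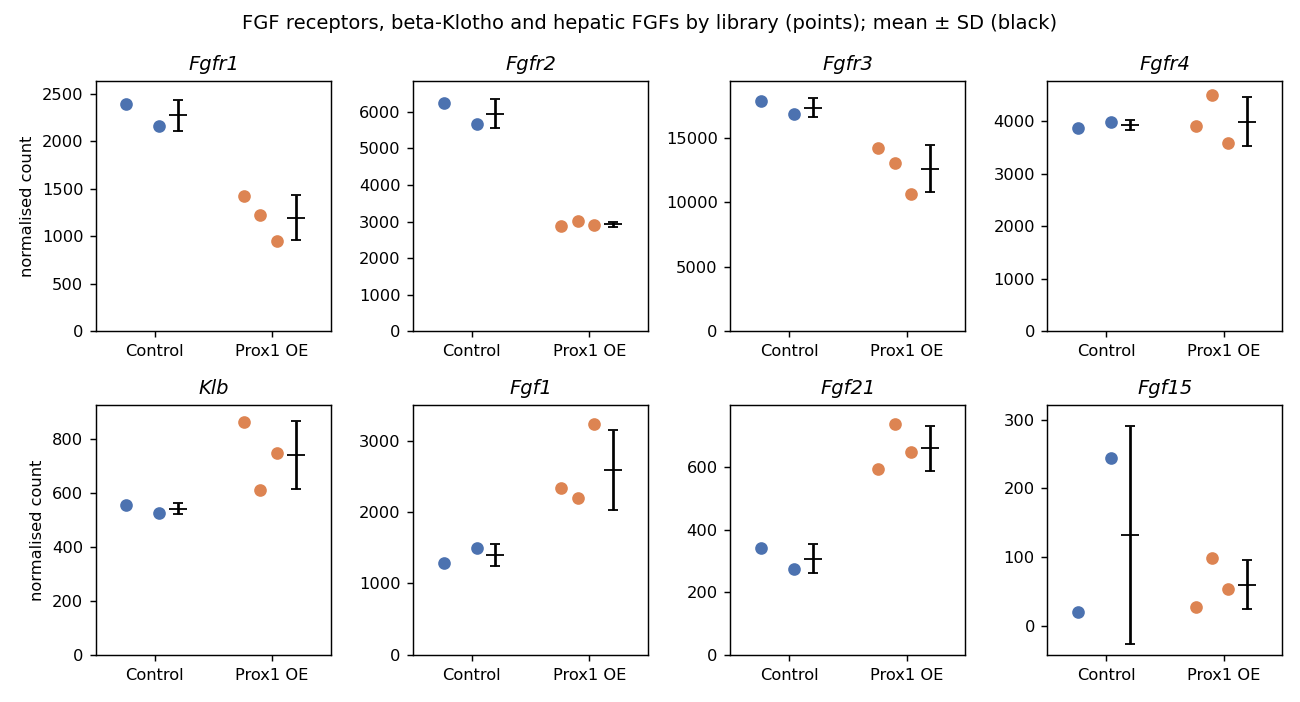
Normalised counts of the 8 FGF genes in each library (linear axis, 1 panel per gene). Control and Prox1 OE libraries are points, with group mean ± SD in black. The groups do not overlap for Fgfr1, Fgfr2, Fgfr3, Klb, Fgf1 and Fgf21, whereas Fgfr4 overlaps and Fgf15 spreads from 19.7 to 244 within Control.

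Fgfr2 encodes the receptor that carries epithelial and mesenchymal splice forms with different ligand preference, and lies at chr7:130162451-133123350 on the minus strand (GRCm38, as are all positions here). Of its 27 annotated transcripts, 1 starts over 1 Mb upstream of the others and sets the outer end of this span. It had 6230 and 5679 normalised counts in Control and 2866, 3002 and 2907 in Prox1 OE. Every Prox1 OE library was below both Control libraries, and the Prox1 OE values lay close together. The mean was 5955 ± 389 (SD, n = 2) in Control and 2925 ± 69.6 (SD, n = 3) in Prox1 OE, a fold of 0.491 (log2 fold change -1.02, SE 0.11, limma adjusted p = 0.0024). It was called in all 16 alternative settings. In the same libraries the 7 cholangiocyte markers called lower summed to 14233 to 18660 normalised counts, against 42628 and 46301 in Control. Exons of Fgfr2 share bases with Ctbp2 on the same strand, so reads of those bases could be assigned to either gene.

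Fgfr1, a receptor prominent in mesenchymal cells (chr8:25513654-25575718, plus strand), had 2387 and 2158 normalised counts in Control and 1418, 1219 and 952 in Prox1 OE. All 3 Prox1 OE libraries were again below both Control libraries, with more spread than for Fgfr2. Means were 2272 ± 162 (SD, n = 2) and 1197 ± 234 (SD, n = 3), and the fold was 0.527 (log2 fold change -0.94, SE 0.18, limma adjusted p = 0.0080). Without Control 1 the log2 fold change was -0.87 and the limma adjusted p was 0.085, and the call held in the other 15 of 16 settings (adjusted p from 6.1e-05 to 0.085 over the 16). Among stellate cell and fibroblast markers, Col1a1 and Acta2 were called lower in the same libraries, while the other 8 summed to 14122 to 15593 against 13409 and 13450 normalised counts.

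Fgfr3 (chr5:33721674-33737068, plus strand) was the most abundant of the 4 receptor genes per length of transcript. Normalised counts were 17865 and 16794 in Control and 14179, 13033 and 10607 in Prox1 OE, so that the groups did not overlap. The mean was 17329 ± 757 (SD, n = 2) in Control and 12606 ± 1824 (SD, n = 3) in Prox1 OE, and the difference missed the threshold (log2 fold change -0.47, 95% interval -0.83 to -0.11, limma adjusted p = 0.051). It passed in 4 of the 16 settings, among them without Prox1 OE 1 (-0.56, limma adjusted p = 0.021) and DESeq2 on recovered reads (adjusted p = 0.022).

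Fgfr4, the FGF15 receptor of hepatocytes (chr13:55152640-55168759, plus strand), had 3863 and 3989 normalised counts in Control. The Prox1 OE libraries had 3900, 4485 and 3575, on both sides of the Control values. Means were 3926 ± 89.1 (SD, n = 2) and 3987 ± 461 (SD, n = 3), and the log2 fold change was 0.02 (95% interval -0.28 to 0.32, limma adjusted p = 0.94). Scaled to the total count, where the median of all genes moved to -0.44, it was -0.42 (limma adjusted p = 0.067). Relative to that median it was near 0 under both scalings, and its sign also turned without Control 1 and without Prox1 OE 2. Fgfr1, Fgfr2 and Fgfr3 had negative values under each scaling.

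**Figure D2:**
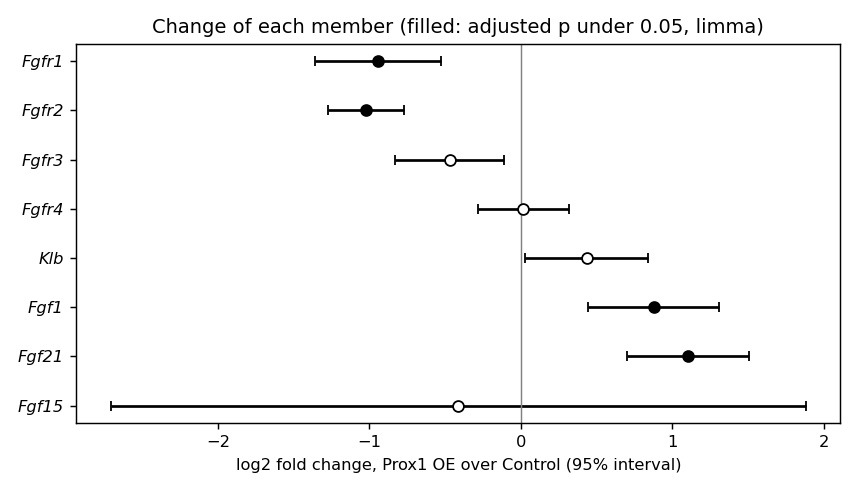
Log2 fold change (Prox1 OE over Control) of the 8 genes with 95% intervals from limma. The intervals are per gene and not adjusted for multiple testing, and filled points mark called genes. Those of Fgfr1, Fgfr2, Fgfr3, Klb, Fgf1 and Fgf21 leave out 0, while that of Fgf15 spans -2.71 to 1.88. Fgfr3 and Klb were still not called (limma adjusted p = 0.051 and 0.092).

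Receptors can be compared with each other only per length. Mean levels in normalised counts per kb of annotated exon were 2421 in Control and 1761 in Prox1 OE for Fgfr3, and 1108 and 1126 for Fgfr4. Those of Fgfr2 were 577 and 283, and those of Fgfr1 were 230 and 121. The order Fgfr3, Fgfr4, Fgfr2, Fgfr1 held in each of the 5 libraries. With the longest transcript as length, Fgfr2 stood above Fgfr4 in both Control libraries (mean shares of the summed receptor level 19.0% and 16.8%) and below it in Prox1 OE (13.1% and 23.7%), so the order of this pair depended on the length used. The summed level of the 4 receptors was 4431 and 4241 per kb in Control and 3503, 3501 and 2869 per kb in Prox1 OE.

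Within that sum, Fgfr4 made up 24.6% and 26.6% in Control and 31.4%, 36.2% and 35.2% in Prox1 OE. Every Prox1 OE share was above both Control shares. The mean was 25.6% ± 1.38 (SD, n = 2) in Control and 34.3% ± 2.50 (SD, n = 3) in Prox1 OE, a difference of 8.67 percentage points (exact permutation test, two-sided p = 0.1, the smallest that 2 against 3 libraries allow). The difference was 6.97 points with the longest transcript as length (exact permutation p = 0.1). Mean shares in Control and Prox1 OE were 5.30% and 3.66% for Fgfr1, 13.3% and 8.68% for Fgfr2, and 55.8% and 53.4% for Fgfr3.

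**Figure D3:**
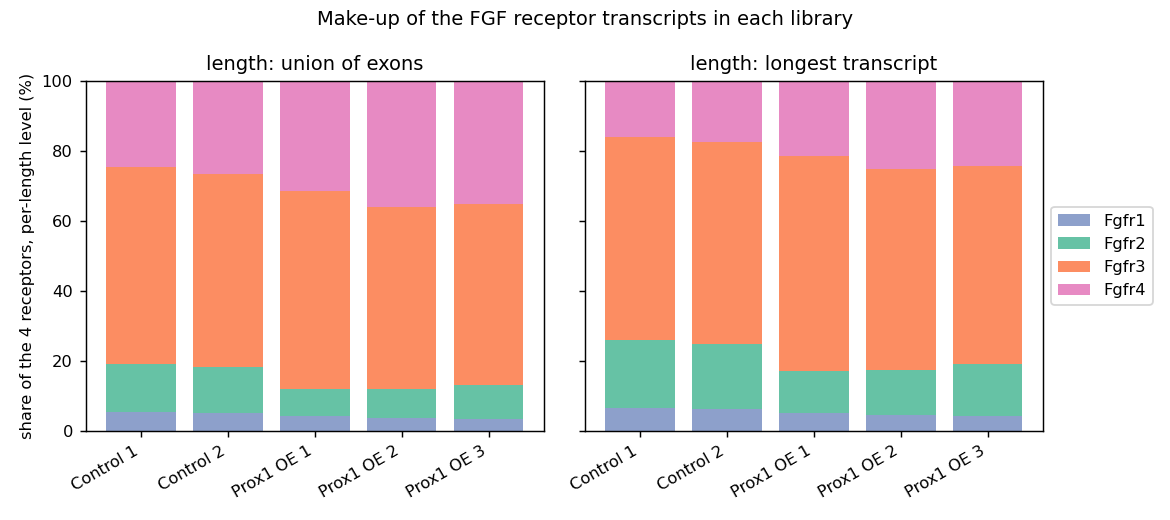
Share of each FGF receptor gene in the summed receptor level of each library, in percent of normalised counts per kb. Length is annotated exon in the left panel and the longest transcript in the right. In the left panel the Fgfr4 share is 24.6% and 26.6% in the Control libraries and 31.4% to 36.2% in the Prox1 OE libraries. In the right panel it is 16.0% and 17.5% against 21.6% to 25.3%. Fgfr3 is the largest share in all 5 libraries in each panel.

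Klb encodes beta-Klotho, the membrane protein through which FGF15 and FGF21 engage their receptors (chr5:65348314-65384007, plus strand). It had 556 and 526 normalised counts in Control and 860, 610 and 748 in Prox1 OE. The groups did not overlap, with Prox1 OE 2 nearest to Control. Means were 541 ± 21.1 (SD, n = 2) and 739 ± 125 (SD, n = 3), and the log2 fold change of 0.44 (95% interval 0.03 to 0.84) missed the threshold (limma adjusted p = 0.092). Scaled to the total count it was 0.00, where the median of all genes was -0.44. The log2 ratio of Klb to Fgfr4 per kb was -3.22 ± 0.09 (SD, n = 2) in Control and -2.80 ± 0.38 (SD, n = 3) in Prox1 OE, a difference of 0.42 (exact permutation p = 0.3). Single values were -3.16 and -3.28 in Control and -2.54, -3.24 and -2.62 in Prox1 OE, so Prox1 OE 2 lay among the Control libraries.

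Fgf21, the endocrine ligand made by hepatocytes, lies at chr7:45613886-45615490 on the minus strand, and its start lies in the promoter printed above. It had 341 and 274 normalised counts in Control and 594, 736 and 647 in Prox1 OE. Every Prox1 OE library was above both Control libraries. The mean was 307 ± 47.5 (SD, n = 2) in Control and 659 ± 71.9 (SD, n = 3) in Prox1 OE, 2.14-fold higher (log2 fold change 1.10, SE 0.17, limma adjusted p = 0.0044). It was called in all 16 alternative settings, and leaving out 1 library moved the log2 fold change between 0.94 and 1.26. The summed hepatocyte markers were higher in the same libraries, at 2517810 or more against 1246170 or less.

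Fgf1 encodes a ligand that binds all FGF receptors (chr18:38838673-38929472, minus strand). Control libraries had 1283 and 1502 normalised counts, and Prox1 OE libraries had 2331, 2199 and 3235. The groups did not overlap, and Prox1 OE 3 was the highest. The mean rose from 1393 ± 155 (SD, n = 2) to 2589 ± 564 (SD, n = 3), 1.86-fold (log2 fold change 0.88, SE 0.18, limma adjusted p = 0.012). Without Control 1 the log2 fold change was 0.76 and the limma adjusted p was 0.11, while the other 15 of 16 settings kept the call. Per kb, Fgf21 and Fgf1 averaged 323 and 255 in Control and 693 and 474 in Prox1 OE, against 43.1 and 19.5 for Fgf15.

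Fgf15, normally made by the ileal epithelium (chr7:144896531-144900953, plus strand), was detected in all 5 tumours. Normalised counts were 19.7 and 244 in Control and 27.6, 97.9 and 53.2 in Prox1 OE, from 24, 288, 27, 83 and 46 reads. The 2 Control libraries held both the lowest and the highest value, 12.4-fold apart, and the groups overlapped. Only 20 of the 17105 genes tested (0.117%) were higher in Control 2 than in Control 1 by as much on the log2 scale. The mean was 132 ± 159 (SD, n = 2) in Control and 59.6 ± 35.6 (SD, n = 3) in Prox1 OE, and the log2 fold change of -0.41 had a 95% interval from -2.71 to 1.88 (limma adjusted p = 0.77). It turned to 1.37 without Control 2 (limma adjusted p = 0.23) and to 0.04 without Prox1 OE 1. It was -2.19 without Control 1 (limma adjusted p = 0.093), -1.13 with edgeR and -1.14 with DESeq2, and it was called in 0 of 16 alternatives. Among ileal enterocyte markers, Sis was at 0 in every library and Fabp6 had 0.822 and 2.54 normalised counts in Control and 0 in Prox1 OE, and Lct had at most 15.6. The other 3 of the 6 were detected in all libraries. Fabp2 had 2076 and 2636 in Control and 7166 to 12205 in Prox1 OE (called higher), Vil1 had 346 and 240 against 71.8 to 154 (called lower), and Slc10a2 had 2379 and 2281 against 2612 to 3668 (not called). Their part in the Fgf15 values was not tested. Antisense genes Gm26793 and Gm39119 share exon bases with Fgf15.

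Genes beside Fgf15 on chromosome 7 were looked up after these values had been seen. Fgf4, a ligand of early embryos that ends 31288 bp before Fgf15 (chr7:144847367-144865243), had 178 reads in Control 2 (95% Poisson interval 153 to 206, counting error only). It had 0 reads in each of the other 4 libraries, for which the same interval reaches 3.69 reads. In normalised counts this was 151 in Control 2 (limma adjusted p = 0.17 for Prox1 OE against Control). The pair Fgf4 and Fgf15 was therefore high in the same library. Fgf3, which lies on the far side of Fgf4, had 3.29 and 1.70 normalised counts in Control and 0 in Prox1 OE. The other 10 protein-coding genes within 500 kb with a mean of at least 10 normalised counts had Control 2 over Control 1 folds between 0.857 and 1.22. Ccnd1, a cyclin of the G1 phase, was among them with 33204 and 36614 normalised counts in Control.

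**Figure D4:**
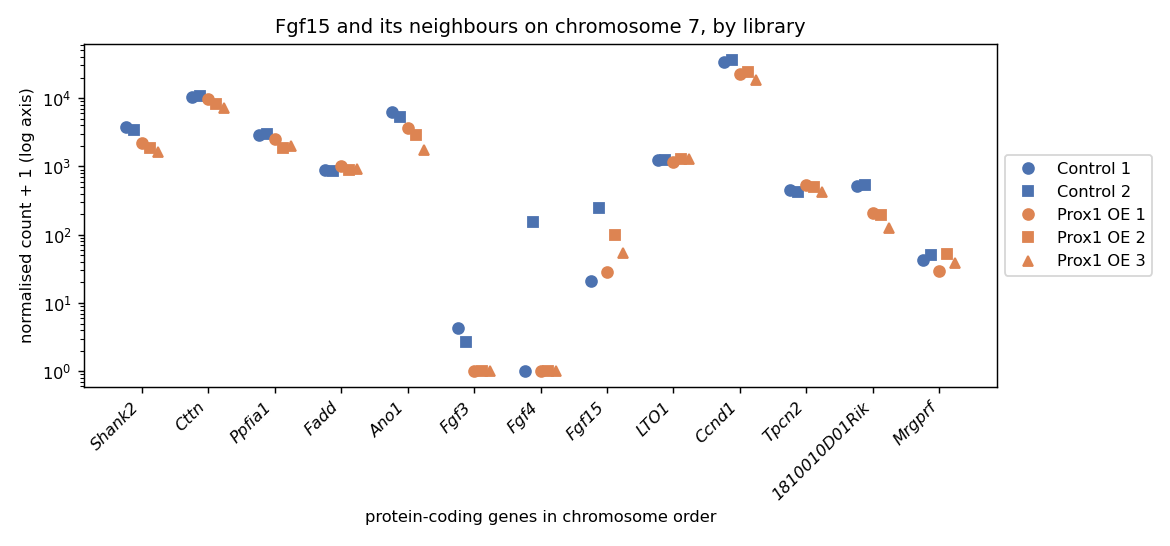
Normalised counts (log axis) by library of Fgf15 and protein-coding genes within 500 kb on chromosome 7, ordered by position. Fgf15 and Fgf4 are high in Control 2 alone among the Control libraries, at 244 and 151, whereas the 10 other neighbours with a mean of at least 10 have Control 2 over Control 1 folds of 0.857 to 1.22.

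Of the 19 other FGF ligand genes, 7 passed the filter and 3 were at 0 in every library. Fgf2, a heparin-binding ligand of mesenchymal and endothelial cells, fell from 166 ± 10.5 (SD, n = 2) to 75.4 ± 7.54 (SD, n = 3) normalised counts (log2 fold change -1.13, limma adjusted p = 0.0098). Fgf12, an intracellular FGF that is not secreted, rose from 30.9 ± 6.58 to 75.6 ± 20.3 (1.24, adjusted p = 0.027). These were the 2 calls among 7 genes tested, a share near the 33.3% over all genes. The call for Fgf2 was lost without Control 1 (-1.07, limma adjusted p = 0.12) and without Control 2 (-1.20, 0.074). That for Fgf12 held in 10 of 16 alternatives and was lost without Control 1 (1.03, limma adjusted p = 0.19), Control 2 (1.46, 0.081), Prox1 OE 2 (1.04, 0.082) or Prox1 OE 3 (adjusted p = 0.058). Fgf7, a ligand of the epithelial FGFR2 form, had at most 4.63 normalised counts and was not tested. The median over the 7 was -0.53, against -0.02 over all genes tested.

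Among 8 co-receptors and FGF-binding proteins, 6 were tested, 0 were called higher and 1 was called lower (17.1% and 16.2% over all genes). The lower calls were 3 without Prox1 OE 1 and 2 without Control 2, where 21.9% and 4.88% of all genes were called lower. That gene was Flrt3, a membrane protein that binds FGF receptors, which fell from 494 ± 90.6 (SD, n = 2) to 92.0 ± 12.6 (SD, n = 3) normalised counts (log2 fold change -2.41, limma adjusted p = 0.0019). Kl, the alpha-Klotho co-receptor of FGF23, had 321 and 47.5 normalised counts in Control and 51.1, 21.2 and 13.9 in Prox1 OE. Control 1 stood far above the other libraries and the groups overlapped (-2.27, limma adjusted p = 0.071). Without Control 1 the value was -0.91 (limma adjusted p = 0.47) and without Control 2 it was -3.64 (limma adjusted p = 0.023). Kl was called in 6 of 16 alternatives, including edgeR (-2.65, adjusted p = 0.041), DESeq2 (-2.67, adjusted p = 0.0025) and the replicate block (-1.88, limma adjusted p = 0.0054). Fgfrl1, a receptor without a kinase domain, gave a value of 0.25 (limma adjusted p = 0.15). Scaled to the total count it was -0.18, where the median of all genes was -0.44. Fgfbp1, a carrier of secreted FGFs, stayed at or below 9.20 normalised counts and was not tested. The median over the 6 was -0.97.

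Of 19 tested genes of heparan sulfate core proteins and modifying enzymes, 1 was called higher, 5 were called lower and 13 were not called, with a median of -0.10. This share is close to the 33.3% called over all genes, and 0 higher and 2 lower calls were made without Control 1 and likewise without Control 2, where 6.77% and 13.3% of all genes were called. Sdc1, an epithelial syndecan that carries heparan sulfate chains, was the gene called higher (0.48, limma adjusted p = 0.025). Its call held in 10 of 16 alternatives. It was lost without Control 1 (0.37), Control 2 (0.59), Prox1 OE 2 (0.47, limma adjusted p = 0.064) or Prox1 OE 3 (0.46, 0.056). Scaled to the total count the value was 0.05, where the median of all genes was -0.44. Sulf1, which removes 6-O-sulfate from the chains outside the cell, fell from 399 ± 4.10 (SD, n = 2) to 89.6 ± 7.58 (SD, n = 3) normalised counts (log2 fold change -2.15, limma adjusted p = 0.0019). Hs6st2, which adds 6-O-sulfate, fell from 2875 ± 114 to 783 ± 365 (-1.97, adjusted p = 0.0052). The glypican gene Gpc6 fell by 2.30 on the log2 scale (adjusted p = 0.010), and Hs2st1, which adds 2-O-sulfate, fell by 0.76 (adjusted p = 0.0052). The remaining call was Sulf2 (-0.65, limma adjusted p = 0.034), named after its value was seen. The lower genes thus included enzymes that add sulfate and enzymes that remove it.

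Adaptors that link activated receptors to the RAS and PI3K pathways were called lower in 5 of 12 cases and higher in 0 (16.2% and 17.1% over all genes), with a median of -0.32. Gab1, a docking protein for PI3K and SHP2, changed most (log2 fold change -0.92, limma adjusted p = 0.0074). Gab2 fell by 0.86 (adjusted p = 0.014), and Sos2, a RAS exchange factor, fell by 0.82 (adjusted p = 0.014). Cbl, the ubiquitin ligase that removes active receptors, fell by 0.66 (adjusted p = 0.019), and Frs2, a docking protein of FGF receptors and few others, fell by 0.47 (adjusted p = 0.030). Apart from Frs2, these adaptors serve many other receptor tyrosine kinases. The median stayed at -0.32 without Control 1 and without Control 2, but 0 adaptors were called in either fit, where 6.77% and 13.3% of all genes were called.

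Feedback and target genes that FGF signalling commonly induces through ERK were called lower in 6 of 15 cases and higher in 0, against 16.2% and 17.1% over all genes. The median was -0.53. Il17rd, a membrane inhibitor of FGF signalling, fell from 814 ± 3.24 (SD, n = 2) to 234 ± 54.9 (SD, n = 3) normalised counts (log2 fold change -1.82, limma adjusted p = 0.0026). Dusp4, a nuclear ERK phosphatase, fell by 1.92 (adjusted p = 0.011), and Spred3, a RAS pathway inhibitor, fell by 1.24 (adjusted p = 0.0090). Etv4, an ETS transcription factor induced by FGF, fell by 1.15 (adjusted p = 0.026), and Spry2, a Sprouty inhibitor, fell by 0.88 (adjusted p = 0.032). The sixth was Spred1 (-0.53, limma adjusted p = 0.024), named after its value was seen. The other 9 missed the threshold, among them Spry1 (-0.25, limma adjusted p = 0.17), Spry4 (-0.45, 0.14), Etv5 (-0.24, 0.50) and the cytoplasmic ERK phosphatase Dusp6 (0.18, 0.34). Only 1 gene of the list was called without Control 1 and 1 without Control 2, where 6.77% and 13.3% of all genes were called. Genes of the list respond to other growth factors as well.

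**Figure D5:**
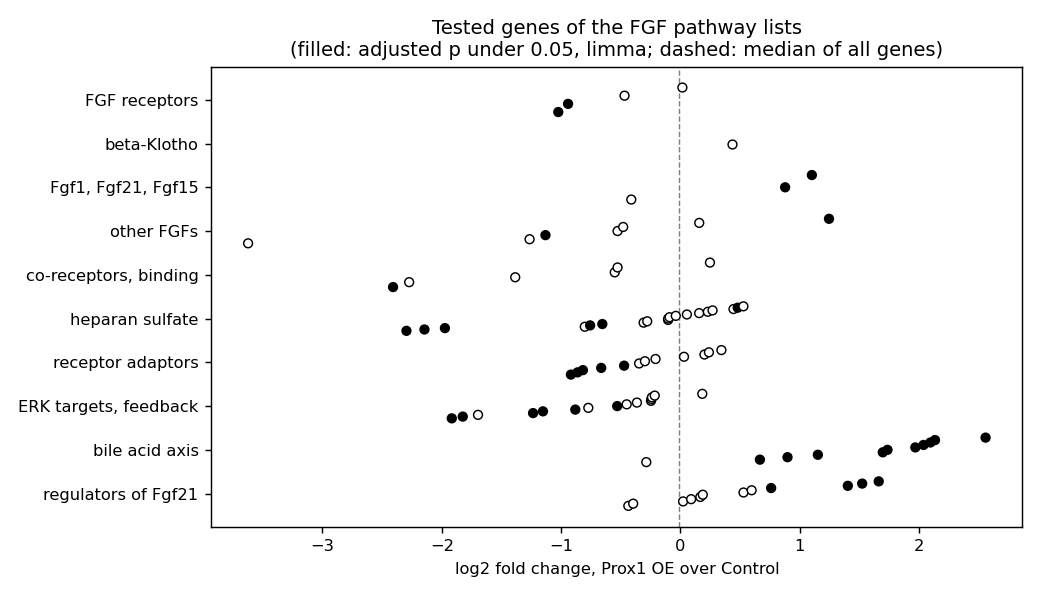
Log2 fold change (Prox1 OE over Control) of each tested gene in the FGF pathway lists. Called genes are filled, and the dashed line is the median of all genes tested. The bile acid genes lie highest, with a median of 1.73 and 10 of 11 called higher, whereas the feedback genes have a median of -0.53 with 6 of 15 called lower.

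Genes of bile acid synthesis, transport and their regulators, which include targets of the FGF15 to FGFR4 axis, were called higher in 10 of 11 cases and lower in 0 (17.1% and 16.2% over all genes), with a median log2 fold change of 1.73. The gene not called was Nr5a2, a nuclear receptor of the same genes, at -0.29 (limma adjusted p = 0.091), named after its value was seen. Cyp7a1, the rate-limiting enzyme of bile acid synthesis that FGF15 represses, rose from 176 ± 59.3 (SD, n = 2) to 761 ± 249 (SD, n = 3) normalised counts, 4.33-fold (log2 fold change 2.09, limma adjusted p = 0.0042). Nr0b2, which encodes the repressor SHP, rose from 255 ± 80.6 to 1517 ± 465, 5.95-fold (2.56, adjusted p = 0.0025). The enzyme and its repressor were thus both higher. Cyp8b1, which sets the share of cholic acid, rose by 2.13 (adjusted p = 0.029) and the export pump gene Abcb11 by 2.04 (adjusted p = 0.0033). The value for Cyp8b1 was 1.52 without Prox1 OE 3, and its call was lost without Control 1 (1.53, limma adjusted p = 0.20) and without Prox1 OE 2 (2.44, limma adjusted p = 0.053). Nr1h4, the bile acid receptor FXR, rose by 0.90 (adjusted p = 0.0031). Many of these genes are expressed in hepatocytes, and 8 of 10 hepatocyte markers were called higher in the same libraries. The part of hepatocyte content in the values of this list was not tested. Without Control 1, 5 of the 11 were called (6.77% of all genes), and the median was 1.52.

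Regulators of the Fgf21 promoter were called higher in 4 of 12 cases and lower in 0, with a median of 0.36. Over all genes, 33.3% were called and 17.1% were called higher. Scaled to the total count, 3 were called higher and 3 lower, with a median of -0.07. Creb3l3, a liver transcription factor that activates Fgf21 with PPARα, rose 2.65-fold (log2 fold change 1.40, limma adjusted p = 0.0018). Mlxipl, the carbohydrate sensor ChREBP, rose by 1.52 (adjusted p = 0.0055), Rxra, the partner of PPARα, by 0.76 (adjusted p = 0.0068, or 0.33 and 0.063 scaled to the total count), and the nuclear receptor gene Nr1i3 by 1.66 (adjusted p = 0.019). For Ppara itself the value was 0.60 (limma adjusted p = 0.17) and for Atf4, a factor of the C/EBP-ATF element, 0.09 (limma adjusted p = 0.76). Scaled to the total count, Atf4 was at -0.34, where the median of all genes was -0.44. Without Control 1, 1 of the 12 was called (6.77% of all genes).

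Genes whose pattern over the 5 libraries was most like that of a member were ranked by the largest gap in log2 value after centring each gene on its mean, among genes with a mean of at least 100 normalised counts. For Fgfr2 these were Dubr, Oxct1 and Tpm4, with gaps of 0.05 to 0.07. For Fgfr1 they were Klhdc7a, Fam20b and Pdk3 (0.04 to 0.05), and for Fgfr3 Pik3ip1, Nacc1 and Marveld2 (0.03 to 0.04). Klb was closest to Prex1, Arhgap10 and Fam49a (0.05 to 0.07), and Fgf1 to Abhd18, Etfrf1 and Eva1a (0.04 to 0.07). Fgf21 was closest to Acot2, an acyl-CoA thioesterase gene, at 0.11, followed by Cbr3 and 1810034E14Rik (both 0.14). The nearest genes to Fgf15, which were Aard, Btc and Ihh, were 0.90 to 1.23 away, so no gene followed it closely.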

How the data were processed

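Nodules of 2 Control and 3 Prox1 OE tumours were profiled by the authors by RNA-seq (dUTP libraries) and mapped with STAR to mm10. Counting tool and strand setting were not given in the sources used here. The deposited normalised counts are a signal, reads divided by a DESeq2 size factor per library. Whole reads were recovered for 100% of values within 0.01 reads. The authors' comparison table (mean, log2 fold change, p-values) was not used, and 0 columns were left unassigned.

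Groups were compared with limma 3.58.1 under R 4.3.3 (lmFit, eBayes with trend) on log2(normalised count + 1), two-sided, for 17105 genes with a mean of at least 10 over the 5 libraries, p-values adjusted by Benjamini-Hochberg and called under 0.05. This scale understates changes of low genes. edgeR 4.0.16 and DESeq2 1.42.0 ran on recovered reads as alternatives. Shares and ratios had exact permutation tests. The procedure was tested on simulated data. No 2 libraries of a group agreed within sampling noise (chi-square 36.2 to 115 times its degrees of freedom), so none was counted as a copy of another. Floors, intervals and totals cover counting error only. Gene models came from GENCODE for GRCm38 (55137 identifiers matched, 99.5%), and 160 of 161 list symbols matched.

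Members and lists were chosen with earlier results of these data known. Named genes were the members, 19 fixed pathway genes, up to 4 called genes per list and direction with the largest change, and 3 genes most like each member (those of Fgfr4 are not reported here). Fgf4, its neighbours, Sulf2, Spred1, Nr5a2 and single cell markers were named after their values were seen.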

Additional observations from a re-analysis of the deposited data

How the results depend on the processing

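Of 128 values of the 8 members under 16 alternatives, 117 kept their direction and side of the threshold, 2 became weaker, 4 stronger and 5 reversed, and 491 of 560 values of 35 other named genes were kept, with 55 weaker, 9 stronger and 5 reversed. With the total count as scaling, the median over all genes was -0.44, with 48.6% of genes called. Under it Fgfr3 was -0.90 and called, Fgfr4 -0.42, Atf4 -0.34, Dusp6 -0.25 and Fgfrl1 -0.18, and calls became 0 higher and 2 lower for other ligands, 4 lower for co-receptors, 0 higher and 9 lower for heparan sulfate, 9 lower for adaptors, 11 lower for feedback, 9 higher and 1 lower for bile acid genes and 3 higher and 3 lower for Fgf21 regulators. Fgfr3 was also called with a mean of at least 50 (-0.47) and with DESeq2 (-0.45). Co-receptors had 2 lower calls with edgeR and 2 with DESeq2, and heparan sulfate 3 higher with DESeq2. The number of members called was 2 without Control 1, 5 without Prox1 OE 1 and 4 in the other fits without a library.

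Leaving out 1 library at a time gave log2 fold changes of -1.07 to -0.79 for Fgfr1, -0.56 to -0.35 for Fgfr3, -0.072 to 0.091 for Fgfr4, 0.71 to 0.99 for Fgf1, -2.19 to 1.37 for Fgf15 and -0.036 to 0.30 for Atf4, a difference in Fgfr4 share of 7.70 to 10.1 points and a Klb to Fgfr4 log2 ratio difference of 0.29 to 0.64. In these fits 6.77% (without Control 1), 13.3% (Control 2), 43.8% (Prox1 OE 1), 22.7% (Prox1 OE 2) and 24% (Prox1 OE 3) of all genes were called. Calls higher ran from 0 to 1 for other ligands, 0 to 3 for heparan sulfate, 5 to 10 for bile acid genes and 1 to 5 for Fgf21 regulators. Calls lower ran from 0 to 1 for other ligands, 1 to 3 for co-receptors, 2 to 6 for heparan sulfate, 0 to 6 for adaptors and 1 to 7 for feedback. The lone Control library was then assumed to vary like the Prox1 OE libraries. The cause of these changes was not tested.

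Replicate numbers 1 and 2 are shared by the groups, and the labels do not say that they mark a pairing. Deviations from the group means of same-numbered libraries correlated at 0.14 and 0.02. The deviations of 2 Control libraries mirror each other, so these values cannot show whether a pairing exists. A fit blocked on replicate number, without Prox1 OE 3, called 4 members beside 30.7% of all genes, and put Atf4 at -0.036. Among other named genes Kl (-1.88, limma adjusted p = 0.0054) and Ppara (0.64, limma adjusted p = 0.034) were called under the block, which changed no other call among the 8 members and the 35 pathway genes. With 2 Control libraries, spread within that group is poorly known.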
